A study of Mus musculus with 4 samples.

Results

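The ADAM genes encode membrane-anchored proteins with a disintegrin and a metalloprotease domain. Here the family was taken as every gene in the count table whose annotated mouse symbol is Adam followed by a digit, which gave 33 of 21936 genes and left out the secreted ADAMTS and ADAMTSL relatives. The study asked which mRNAs associate with TSSK2, a testis-specific serine kinase of the late chromatoid body (late-CB), an RNP granule of elongating spermatids. Germ cells were released from the testes of adult C57BL/6 mice with collagenase and cross-linked with PFA, and the insoluble pellet fraction was sonicated and immunoprecipitated with an anti-TSSK2 antibody (TSSK2-IP, 2 libraries) or with mouse IgG (control IgG-IP, 2 libraries). Both groups came from the same kind of preparation and differed in the antibody, so each value below is the abundance of an mRNA in an IP relative to the other mRNAs of that library and not its level in the cells. The labels and methods do not say whether the 2 libraries of a group came from separate animals, so the p-values measure only the spread between these samples, which may be technical.

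ADAM proteins are made with a prodomain that is removed on the way to the cell surface, and the members that carry a zinc-binding site in the metalloprotease domain can cut other membrane proteins. ADAM10 and ADAM17 are the best known of these sheddases and release receptors, ligands and cytokines in many tissues. A large part of the mouse family is instead made in male germ cells. There ADAM1 and ADAM2 form fertilin, and ADAM3 is needed on the sperm surface for passage into the oviduct and for binding to the zona pellucida. Many of the germ cell members have lost the zinc-binding site and act in adhesion or in assembling sperm surface complexes.

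From general knowledge of where they are made, 20 members were listed as testis-restricted, 12 as expressed mainly in other tissues or broadly, and Adam7 as a gene of the epididymis. The levels per kilobase of annotated exon separated these lists without overlap. As mean counts scaled to the normalized library size and to kilobases of annotated exon (RPKM) over the 4 libraries, the testis-restricted members ranged from 11.6 to 506 with a median of 29.9, and the members of other tissues ranged from 0.334 to 7.22 with a median of 1.46. Adam3 stood highest at 506 RPKM, followed by Adam5 at 403, Adam32 at 263 and Adam2 at 133, and Adam34 was the lowest testis-restricted member. The highest member of the other list was Adam15. On chromosome 8 lay 13 of the 33 genes, in 3 clusters and as the single gene Adam29. The first cluster (GRCm38 chr8:24602246-25016927) held Adam18, Adam3, Adam5, Adam32 and Adam9, the second (chr8:40675077-40827037) held Adam24, Adam25, Adam20 and Adam39, and the third (chr8:43519762-43710049) held Adam26b, Adam26a and Adam34.

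The zinc-binding site was searched in the translation of the longest annotated coding sequence of each member. It was found in 11 of the 20 testis-restricted members and in 9 of the 12 members of other tissues. It was not found in Adam2, Adam3, Adam5, Adam18 and Adam32, the 5 testis-restricted members with many coding exons, nor in Adam4, Adam6a, Adam6b and Adam29, whose coding sequence lies in 1 exon. The sites printed are those of 7 members, namely the fertilin alpha genes, the neighbours Adam26a and Adam26b, and Adam10, Adam15 and Adam17, so that the conserved codons can be compared between testis-restricted genes and genes of other tissues. Of the other members with values in every library, Adam9, Adam12, Adam19, Adam28, Adam33 and Adam34 also have the site. Each is coding-strand DNA of GRCm38, 5′ to 3′, with the codons of the 3 zinc-binding histidines, the catalytic glutamate and the conserved glycine in capitals. The site of Adam10 is split by an intron and was joined across it.
Adam1a, chr5:121520089-121520121, minus strand: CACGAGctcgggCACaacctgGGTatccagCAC
Adam1b, chr5:121501937-121501969, minus strand: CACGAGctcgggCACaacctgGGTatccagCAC
Adam26a, chr8:43569435-43569467, minus strand: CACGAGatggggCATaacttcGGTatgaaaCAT
Adam26b, chr8:43520947-43520979, minus strand: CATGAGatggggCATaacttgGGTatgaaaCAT
Adam10, chr9:70754296-70761585, plus strand: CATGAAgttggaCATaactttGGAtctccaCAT
Adam15, chr3:89344780-89344812, minus strand: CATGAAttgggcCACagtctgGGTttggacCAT
Adam17, chr12:21336732-21336764, minus strand: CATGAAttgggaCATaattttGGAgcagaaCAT

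Adam1a and Adam1b, which both encode the alpha subunit of fertilin, were identical over this site and over much of their coding sequence. They shared a coding stretch of 1205 bases (Adam1a chr5:121519853-121521057, Adam1b chr5:121501701-121502905, minus strand) with 99.7% identity. Counted from the 5′ end of the stretch, with the Adam1a base first, it held the 4 substitutions T1083C, C1097T, G1180C and C1191T, and its longest identical run was 1082 bases. Reads within that run could not be assigned to one gene or the other, so the counts of both are uncertain. The windows below show the first 2 of these substitutions in capitals and are printed because only such positions separate the 2 mRNAs inside the stretch.
Adam1a, chr5:121519935-121520015, minus strand: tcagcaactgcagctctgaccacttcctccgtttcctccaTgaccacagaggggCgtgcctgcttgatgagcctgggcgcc
Adam1b, chr5:121501783-121501863, minus strand: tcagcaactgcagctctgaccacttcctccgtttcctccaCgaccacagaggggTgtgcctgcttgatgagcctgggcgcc
A readthrough transcript annotated to Adam1a also overlaps Gm42878, Mapkapk5 and Tmem116, which adds to the uncertainty of its count and, through the added exon length, lowers its RPKM. No other pair of members shared a stretch of at least 150 bases at 97% identity or more. Genes on the opposite strand overlap exons of Adam3, Adam8, Adam15, Adam17 and Adam19, a pseudogene on the same strand overlaps Adam34, and Adam12 shares a stretch of 373 bases with CT030642.2. Of these genes Iah1, at Adam17, was itself counted in the table, and the strand setting of the counting was not given in the sources used here.

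The libraries held 4158034 and 4491749 counts in TSSK2-IP and 9858941 and 3938922 in control IgG-IP. After TMM normalization 1 count equalled 0.156 to 0.230 CPM (counts scaled to the normalized library size), and the levels below are such normalized CPM. Control replicate 1, the deepest library, stood apart for this family. ADAM genes took 0.744% of its counts, against 0.367% and 0.354% of the counts in TSSK2-IP replicates 1 and 2 and 0.427% in control replicate 2. Adam2, Adam3, Adam5 and Adam32 together made up 80.0% of its summed ADAM CPM, against 59.4% to 67.8% in the other libraries. Values without it are therefore given beside the results.

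No ADAM gene passed the thresholds for a difference between TSSK2-IP and control IgG-IP. Of the 32 members tested, 0 were called higher and 0 lower, a call being a log2 fold change of 1 or more in size with an adjusted p of 0.05 or less (edgeR's quasi-likelihood F test, Benjamini-Hochberg adjustment over 14722 genes). Over all genes tested, 0.693% were called higher and 0% lower. DESeq2 also called 0 members in either direction, beside 139 higher and 0 lower over all genes. At an unadjusted p under 0.05, edgeR had 1 member higher (Adam22) and 2 lower (Adam1a and Adam1b), against 8.34% and 4.89% of all genes tested. DESeq2 had 0 higher and 6 lower. Its shares over all genes at that p were not taken, so these counts have no background.

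Below the threshold, most fitted differences were negative. The fitted value was negative in 26 of 32 members, against 50.8% of all genes tested, and the median log2 fold change was -0.57 against -0.02 over all genes. The family median was -0.22, with 22 negative values, without control replicate 1 and -0.84, with 25, without control replicate 2. Both TSSK2-IP libraries lay below both control libraries in 14 members and above them in 1, while the groups overlapped in the other 17. Over all genes tested the shares were 21.6% below and 27.3% above. In 19 of the 32 members control replicate 1 had the highest level of the 4 libraries, against 35% of all genes tested.

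**Figure D1:**
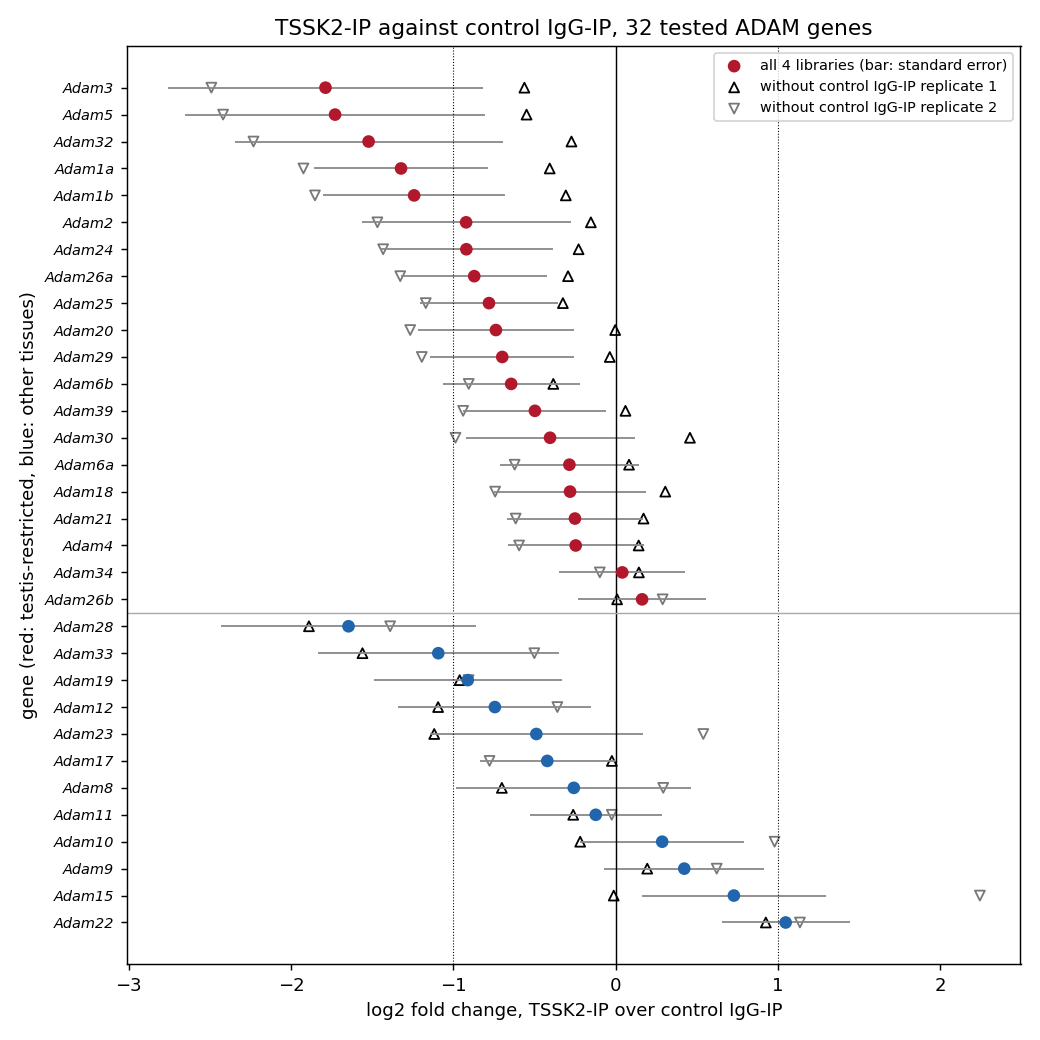
Fitted log2 fold change, TSSK2-IP over control IgG-IP, of the 32 tested ADAM genes, with bars of 1 SE and the values without control replicate 1 and without control replicate 2 beside them. Negative values prevail among the testis-restricted genes, and leaving out control replicate 1 brings most of them close to 0.

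The 20 testis-restricted members all passed the filter on low counts. Their fitted log2 fold changes ran from -1.79 (Adam3) to 0.16 (Adam26b), with a median of -0.72, and 18 of 20 were negative. Their Benjamini-Hochberg adjusted p-values from edgeR ran from 0.329 to 0.976. Both TSSK2-IP libraries lay below both controls in 10 of them, and in the other 10 the groups overlapped. The share below was 21.6% of all genes tested. It was 1164 of the 2263 tested genes with a mean above 100 CPM, a level that 8 of the 20 members had. Without control replicate 1 the median of the 20 members was -0.10, with 12 negative and 8 positive values, while 49.8% of all genes tested were negative. Without control replicate 2 it was -1.18, with 19 negative values and 1 positive, while 45.3% of all genes tested were negative. The size of the difference thus rested on 1 control library.

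Adam3, the sperm surface protein described above, had the highest mean level per exon length of the family. It measured 734 and 602 CPM in TSSK2-IP and 3627 and 990 CPM in control IgG-IP. The groups did not overlap, but the 2 controls lay much farther from each other (3.66-fold) than control replicate 2 lay from the TSSK2-IP mean (1.48-fold). The fitted log2 fold change was -1.79 with an SE of 0.97 (n = 2 per group, adjusted p = 0.423, edgeR). It was -0.56 without control replicate 1 and -2.49 without control replicate 2.

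Adam5, the neighbour of Adam3 and a member without the zinc-binding site, measured 611 and 559 CPM in TSSK2-IP and 3021 and 859 CPM in control IgG-IP. Control replicate 1 was again several times above the other 3 libraries, which lay closer together. The log2 fold change was -1.73 (SE 0.92, adjusted p = 0.419, edgeR), and it was -0.55 without control replicate 1. Adam32, in the same cluster, measured 432 and 381 CPM in TSSK2-IP and 1842 and 492 CPM in control IgG-IP, with a log2 fold change of -1.52 (SE 0.83, adjusted p = 0.422, edgeR) that was -0.27 without control replicate 1.

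Adam1a and Adam1b had the smallest unadjusted p-values among the lower members. Adam1a measured 67.2 and 75.4 CPM in TSSK2-IP and 261 and 94.9 CPM in control IgG-IP (log2 fold change -1.32, SE 0.54, adjusted p = 0.329, edgeR). Adam1b measured 95.8 and 90.4 CPM in TSSK2-IP and 325 and 116 CPM in control IgG-IP (log2 fold change -1.24, SE 0.56, adjusted p = 0.364, edgeR). In both genes the TSSK2-IP libraries lay below the controls without overlap, and the values without control replicate 1 were -0.41 for Adam1a and -0.31 for Adam1b. Because of the identical stretch the 2 genes cannot be taken as independent measurements, since the handling of reads that match both was not given.

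Adam2 encodes the beta subunit of fertilin and partners ADAM1 and ADAM3 in the sperm complexes. It measured 240 and 255 CPM in TSSK2-IP and 662 and 277 CPM in control IgG-IP. The TSSK2-IP libraries were both lower than control replicate 2, but by a margin small beside the gap between the controls. The log2 fold change was -0.92 (SE 0.64, adjusted p = 0.524, edgeR) and was -0.15 without control replicate 1. Adam18, the remaining member of the first chromosome 8 cluster made in the testis, measured 85.0 and 88.1 CPM in TSSK2-IP and 140 and 70.3 CPM in control IgG-IP, so its groups overlapped.

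**Figure D2:**
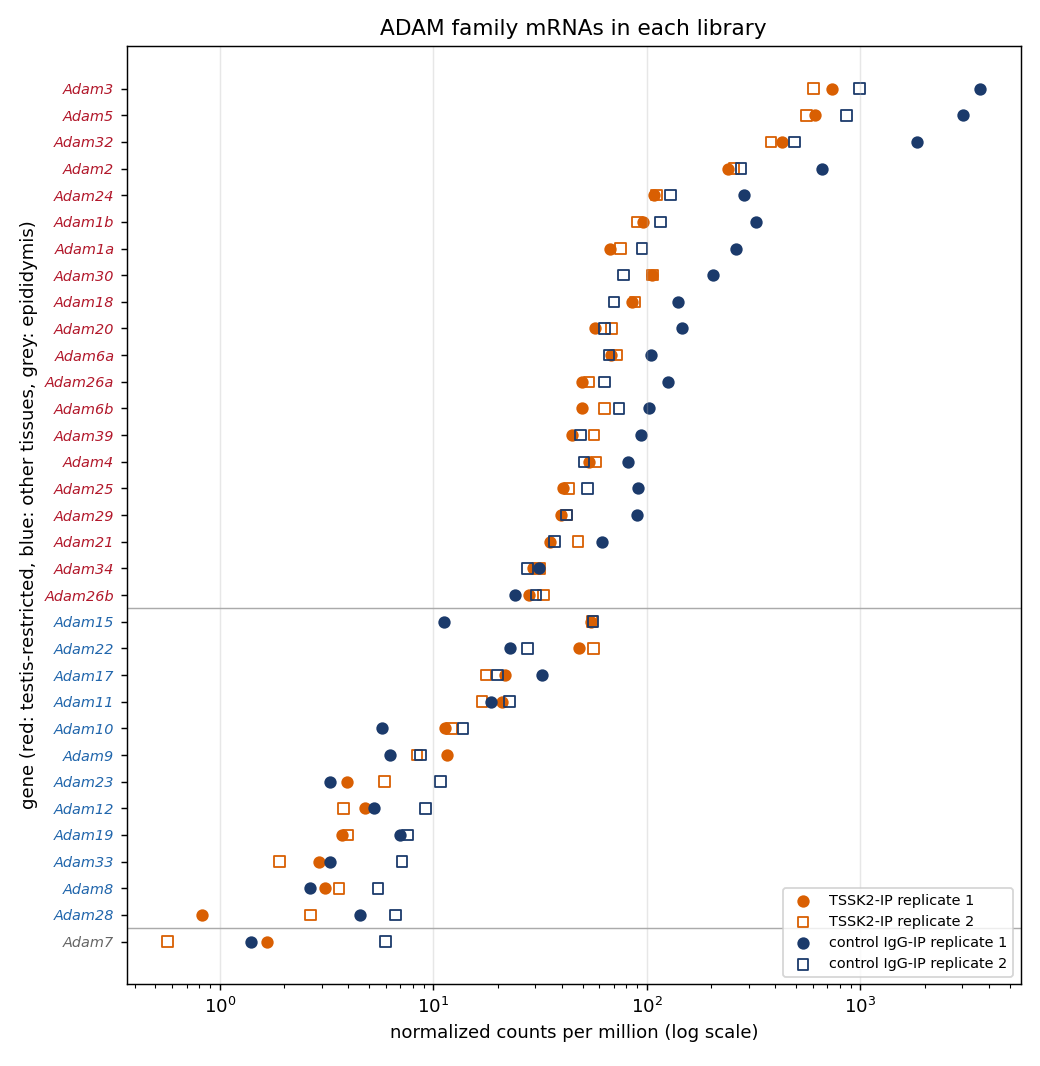
Normalized CPM of each of the 33 ADAM genes in the 4 libraries on a log axis, grouped by where the gene is expressed. Control replicate 1 lies to the right of the other libraries for most testis-restricted genes, from Adam3 at 3627 CPM downwards.

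The testis-restricted members were also described by their coding exons, with no test of the difference between the 2 kinds. All 5 with many coding exons (Adam2, Adam3, Adam5, Adam18 and Adam32) had negative log2 fold changes with a median of -1.52, and in 4 of them both TSSK2-IP libraries lay below both controls. Without control replicate 1 their median was -0.27. Of the 15 members whose coding sequence lies in 1 exon, 13 had negative values with a median of -0.64, which was -0.0038 without control replicate 1, and in 6 of them the TSSK2-IP libraries lay below the controls. Adam1a and Adam1b of this kind were more negative than Adam2 and Adam18 of the other. Over all tested protein-coding genes the medians were 0.21 for the 1035 genes with 1 coding exon and -0.03 for the 13652 genes with more. Both TSSK2-IP libraries lay below both controls in 183 of those 1035 genes and in 2988 of those 13652. The split by the zinc-binding site showed nearly the same medians, with -0.74 in the 11 testis-restricted members that have it and -0.70 in the 9 that do not. These were -0.0038 and -0.15 without control replicate 1.

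Among the members with 1 coding exon, Adam26a of the third chromosome 8 cluster had the next smallest p after Adam1a and Adam1b. It measured 49.5 and 53.5 CPM in TSSK2-IP and 125 and 63.4 CPM in control IgG-IP (log2 fold change -0.87, SE 0.45, adjusted p = 0.408, edgeR), and the value was -0.29 without control replicate 1 and -1.33 without control replicate 2. Its neighbours in the same cluster had the only positive values of the testis-restricted list. Adam26b measured 28.0 and 32.7 CPM in TSSK2-IP and 24.0 and 30.3 CPM in control IgG-IP, with a log2 fold change of 0.16 (SE 0.39, adjusted p = 0.882, edgeR). Adam34 measured 29.2 and 31.4 CPM in TSSK2-IP and 31.4 and 27.6 CPM in control IgG-IP, with a log2 fold change of 0.04 (SE 0.39, adjusted p = 0.976, edgeR), and its sign changed with the normalization. The groups overlapped in both genes, and these were the 2 testis-restricted members in which control replicate 1 was not the highest library.

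The second chromosome 8 cluster gave log2 fold changes of -0.92 for Adam24, -0.78 for Adam25, -0.74 for Adam20 and -0.50 for Adam39. On chromosome 12, the pair Adam6a and Adam6b had -0.29 and -0.64, and the pair Adam4 and Adam21 had -0.25 and -0.25. The single genes Adam29 and Adam30 had -0.70 and -0.41. None of these 10 genes had an adjusted p below 0.422 in edgeR's test, and without control replicate 1 the values of Adam4, Adam6a, Adam21, Adam30 and Adam39 were positive. Without that library Adam6b had -0.39, Adam25 -0.33, Adam24 -0.23, Adam29 -0.037 and Adam20 -0.0038.

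In normalized CPM, the controls lay far apart in the testis-restricted list. Control replicate 1 was above control replicate 2 in 19 of the 20 members, with a median log2 ratio of 1.04. It was above it in 45.8% of all genes tested. Among the 2263 tested genes above 100 CPM it was above it in 2049, with a median log2 ratio of 1.06. The distance was thus not particular to the list at that level. Between 20 and 100 CPM, 48.7% of 4517 tested genes were highest in control replicate 1, against 83.3% of the 12 testis-restricted members. The ratios between the controls depend on the normalization. The TMM factor of control replicate 1 was 0.652, against 1.12 to 1.18 in the other libraries, so the ratios are lower by plain share of counts. Adam6b, for example, had 655 of 9858941 counts in control replicate 1 and 322 of 3938922 in control replicate 2, a smaller share in replicate 1. The median size of the log2 ratio between the 2 TSSK2-IP libraries was 0.11 over the 20 members. The ratio of the controls reached 3.74-fold in Adam32 and 3.52-fold in Adam5, and it was 2.81-fold in Adam1b and 2.76-fold in Adam1a. In the members of other tissues the order was turned: control replicate 1 was above control replicate 2 only in Adam17, and the median log2 ratio was -0.63. This was not particular to these genes. Of the 12, 9 had a mean of 20 CPM or less, and 13.4% of the 7942 tested genes at that level were highest in control replicate 1. Among the 24 ADAMTS and ADAMTSL genes, control replicate 1 was above control replicate 2 in 2.

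**Figure D3:**
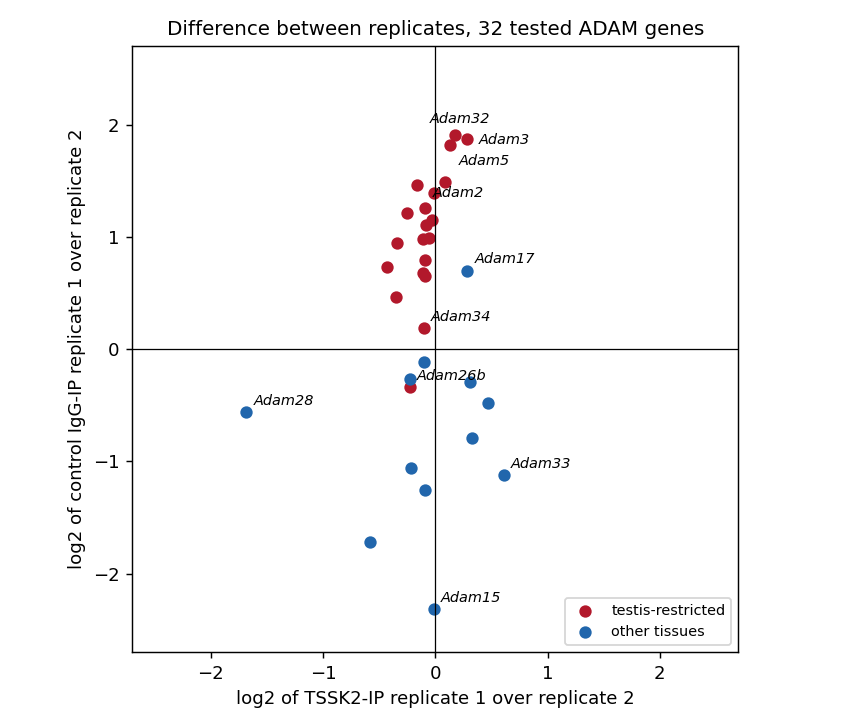
Each tested ADAM gene by the log2 ratio of its replicates in normalized CPM, TSSK2-IP replicate 1 over 2 on one axis and control replicate 1 over 2 on the other. The TSSK2-IP libraries differ little in the testis-restricted genes, whereas 19 of those 20 genes lie above 0 on the control axis and 11 of the 12 genes of other tissues below it.

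The fitted difference followed the level of the gene. Over the 20 testis-restricted members the rank correlation of mean RPKM with log2 fold change was -0.68, a description across genes that share the same 4 libraries. Level and fold change were taken from the same values, so the correlation is partly built in. A gene high in control replicate 1 has a higher mean level and a lower fold change. Adam1a, for example, had a mean above 100 CPM through 261 CPM in control replicate 1, with 67.2, 75.4 and 94.9 CPM in the other libraries. All 8 members above 100 CPM had negative values with a median of -1.28, and 10 of the 12 members between 20 and 100 CPM were negative with a median of -0.39. Over all genes tested the rank correlation, with mean CPM, was -0.21, against -0.83 with mean CPM over the 20 members. Of the 2263 tested genes above 100 CPM, 81.4% had negative values, with a median of -0.69, and 83.3% were highest in control replicate 1. Without that library their median was -0.09. Between 20 and 100 CPM, 47.2% of 4517 genes had negative values, with a median of 0.05. At 20 CPM or less, 44.1% of 7942 genes had negative values, with a median of 0.11. These level bounds were chosen after the levels had been seen.

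**Figure D4:**
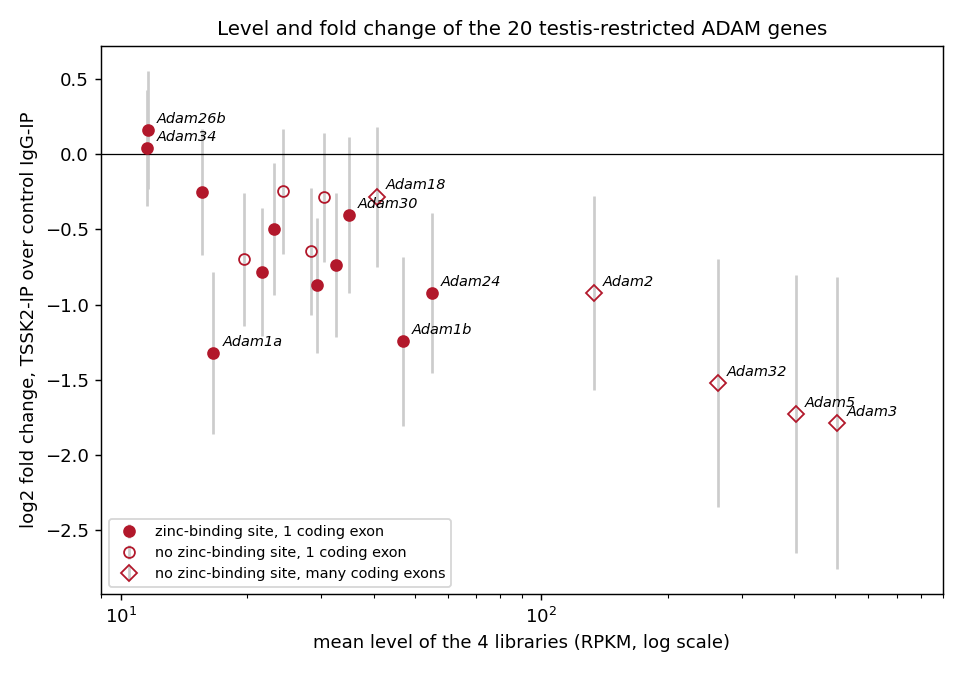
Fitted log2 fold change of the 20 testis-restricted ADAM genes against their mean RPKM over the 4 libraries, on a log axis, with bars of 1 SE, filled points for genes with the zinc-binding site, open circles for genes without it and 1 coding exon, and diamonds for genes without it and many coding exons. The most abundant genes, Adam3, Adam5 and Adam32, have the most negative values.

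The 12 members of other tissues were all tested and had a median log2 fold change of -0.34, with a range from -1.65 (Adam28) to 1.05 (Adam22). Fitted values were negative in 8 and positive in 4, and Benjamini-Hochberg adjusted p-values from edgeR ran from 0.296 to 0.916. The median was -0.48 without control replicate 1 and 0.13 without control replicate 2, so its sign also depended on the controls. Both TSSK2-IP libraries lay below both controls in 4 of these genes and above them in 1, beside 21.6% and 27.3% of all genes tested.

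Adam22, a member without the zinc-binding site that is known as a receptor of LGI proteins at synapses, was the only ADAM gene with both TSSK2-IP libraries above both controls. It measured 48.1 and 56.1 CPM in TSSK2-IP and 22.9 and 27.6 CPM in control IgG-IP. Both controls were close together, and the group means differed by more than the spread within either group (52.1 ± 5.68 against 25.3 ± 3.28 CPM, SD, n = 2 each). The log2 fold change was 1.05 (SE 0.39, adjusted p = 0.296, edgeR) and did not pass the adjusted threshold. It was 0.92 without control replicate 1 and 1.13 without control replicate 2, the smallest shift among the members with an unadjusted p under 0.05.

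Adam15, which encodes a zinc-site member found in endothelium and epithelia, had the lowest ratio of control replicate 1 to control replicate 2 among the tested members (0.20). It measured 54.9 and 55.4 CPM in TSSK2-IP and 11.2 and 55.8 CPM in control IgG-IP. Control replicate 2 was at the level of both TSSK2-IP libraries, and control replicate 1 alone was low. The log2 fold change was 0.73 (SE 0.57, adjusted p = 0.570, edgeR), -0.01 without control replicate 1 and 2.24 without control replicate 2.

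The sheddases Adam10 and Adam17 did not separate the groups. Adam10 measured 11.4 and 12.2 CPM in TSSK2-IP and 5.77 and 13.8 CPM in control IgG-IP (log2 fold change 0.29, SE 0.50, adjusted p = 0.827, edgeR). Adam17 measured 21.6 and 17.7 CPM in TSSK2-IP and 32.5 and 19.99 CPM in control IgG-IP (log2 fold change -0.42, SE 0.42, adjusted p = 0.662, edgeR). The groups overlapped in both genes. Adam9, a further sheddase, measured 11.6 and 8.37 CPM in TSSK2-IP and 6.24 and 8.73 CPM in control IgG-IP, with a log2 fold change of 0.42 and overlapping groups.

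Among the members of other tissues with negative values, Adam28, Adam19, Adam33 and Adam12 had the smallest p-values. Adam28, known from lymphocytes and epithelia, measured 0.829 and 2.66 CPM in TSSK2-IP and 4.52 and 6.66 CPM in control IgG-IP (log2 fold change -1.65, SE 0.78, adjusted p = 0.385, edgeR). Adam19 measured 3.73 and 3.996 CPM in TSSK2-IP and 7.02 and 7.58 CPM in control IgG-IP (log2 fold change -0.91, SE 0.58, adjusted p = 0.492, edgeR). In both genes the TSSK2-IP libraries lay below the controls, and control replicate 2 was the higher control, unlike in the abundant testis-restricted members. Adam33 measured 2.90 and 1.90 CPM in TSSK2-IP and 3.28 and 7.12 CPM in control IgG-IP (log2 fold change -1.09, SE 0.74, adjusted p = 0.514, edgeR). Adam12, which is made in mesenchymal cells, measured 4.77 and 3.81 CPM in TSSK2-IP and 5.30 and 9.19 CPM in control IgG-IP (log2 fold change -0.75, SE 0.59, adjusted p = 0.578, edgeR). Without control replicate 1 the values were -1.89 for Adam28, -0.96 for Adam19, -1.56 for Adam33 and -1.09 for Adam12, and without control replicate 2 those of Adam33 and Adam12 were -0.50 and -0.36. At these levels a library held few counts per gene, and 3 counts equalled 0.468 to 0.689 CPM.

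Of the remaining members of other tissues, Adam8, Adam11 and Adam23 had log2 fold changes of -0.26, -0.12 and -0.49 and overlapping groups. Adam7, the epididymal gene, was removed by the filter on low counts. Its counts were 8 and 3 in TSSK2-IP and 9 and 26 in control IgG-IP, so no difference was tested. Of the 6 epididymis markers listed, 5 had at most 9 counts in any library, and Rnase10 had 25 to 63.

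Leaving out a control library changed which members were called. Without control replicate 1, Adam28 was called lower and no member higher, against 2.16% of all genes called lower and 5.47% higher. Without control replicate 2, 11 members were called lower (Adam1a, Adam1b, Adam2, Adam3, Adam5, Adam20, Adam24, Adam25, Adam26a, Adam29 and Adam32, all testis-restricted) and Adam15 and Adam22 were called higher, against 17.9% and 19.4% of all genes. In these fits the lone control is assumed to vary like the TSSK2-IP pair. No member was called in both. With a TSSK2-IP library left out, the spread came from the control pair alone. Over all genes tested the median size of its log2 ratio was 0.83, against 0.22 for the TSSK2-IP pair. Those fits had little power to call a member, and no conclusion is drawn from them.

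The genes that act with the family were not called either. Of 17 genes for chaperones, convertases and other factors that sperm ADAM proteins need for maturation and surface transport, all were tested and 0 were called in either direction, with 7 positive and 10 negative fitted values and a median log2 fold change of -0.05, which was 0.031 without control replicate 1 and -0.18 without control replicate 2. The smallest p-values belonged to Pgap1, a deacylase of GPI anchors, and Cmtm2a, a membrane protein needed for ADAM3 on sperm. Pgap1 measured 64.3 and 76.3 CPM in TSSK2-IP and 15.9 and 29.4 CPM in control IgG-IP (log2 fold change 1.64, SE 0.43, adjusted p = 0.134, edgeR), or 1.26 without control replicate 1. Cmtm2a measured 81.7 and 71.7 CPM in TSSK2-IP and 444 and 96.0 CPM in control IgG-IP (log2 fold change -1.82, SE 0.66, adjusted p = 0.278, edgeR), with control replicate 1 far above the rest as in Adam3. It was -0.32 without control replicate 1.

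Of 15 regulators and inhibitors of ADAM10 and ADAM17, 13 were tested and 0 were called, with a median log2 fold change of 0.08 that was -0.26 without control replicate 1 and 0.67 without control replicate 2. The smallest p-values among them were those of Tspan33, a tetraspanin partner of ADAM10, at -0.87 (adjusted p = 0.444) and Timp2, a tissue inhibitor of metalloproteases, at -0.57 (adjusted p = 0.565), both from edgeR. All 24 ADAMTS and ADAMTSL genes were tested and 0 were called, with 16 negative values and a median of -0.22. This sign also rested on the controls: without control replicate 1 the median was -0.80 with 20 negative values, and without control replicate 2 it was 0.52 with 7. Adamts5, an aggrecan-cleaving enzyme, had 1.27 (adjusted p = 0.293) and Adamts15 had -1.30 (adjusted p = 0.453), both from edgeR. At an unadjusted p under 0.05, edgeR had 1 gene higher and 1 lower among the 17 maturation genes, 0 among the ADAM10 and ADAM17 partners, and 1 higher among the ADAMTS and ADAMTSL genes, beside 8.34% of all genes tested higher and 4.89% lower.

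Among the marker lists, those of spermatids and spermatocytes had the highest sums, while spermatogonial markers summed to 27.2 to 37.9 CPM, close to the somatic lists. Spermatid mRNAs gave 3226 and 2919 CPM in TSSK2-IP and 4622 and 3414 CPM in control IgG-IP, and spermatocyte mRNAs gave 1720 and 1816 CPM against 2763 and 1564 CPM. Control replicate 1 was the highest library for 4 of the 7 spermatid and 3 of the 5 spermatocyte markers and the lowest for 2 and 1 of them. Prm2, a protamine, carried the spermatid sum, and without it the sums were 1863 and 1816 CPM in TSSK2-IP and 1834 and 1725 CPM in control IgG-IP, so control replicate 1 was no longer the highest. Without Ldhc, the germ cell lactate dehydrogenase, the spermatocyte sums were 592 and 532 CPM against 673 and 546 CPM. Sertoli cell markers gave 30.5 and 19.6 CPM in TSSK2-IP and 8.89 and 24.1 CPM in control IgG-IP, and Leydig cell markers gave 38.4 and 38.2 CPM against 16.1 and 35.8 CPM. No marker of these lists was called, and of the 7 Sertoli and 6 Leydig markers only Insl3 was at 0 in a library, control replicate 1. Myoid and endothelial markers gave 54.9 and 56.3 CPM in TSSK2-IP and 45.6 and 94.2 CPM in control IgG-IP. Macrophage markers gave 19.3 and 29.9 CPM against 22.6 and 29.0 CPM, lowest in TSSK2-IP replicate 1. In the Sertoli list, Gata4 was lowest in TSSK2-IP replicate 2 and Cldn11 in control replicate 2. Control replicate 1 thus had the lowest Sertoli, Leydig and myoid and endothelial sums, but not the lowest macrophage sum. It had the highest levels of most testis-restricted ADAM genes. The spermatid and spermatocyte markers were divided, with Prm2 and Ldhc highest in it and Tnp1, Acrv1 and Hormad1 lowest. All Sertoli and Leydig markers had a mean of 20 CPM or less, where 13.4% of 7942 tested genes were highest in control replicate 1. The part of the cell makeup in these levels was not tested, and in bulk libraries fewer cells of a type and less RNA per cell cannot be told apart.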

How the data were processed

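The authors prepared directional libraries without rRNA removal and deposited a table of unnormalized whole-number read counts for each gene. Per the submitters' processing notes, reads were trimmed with Trimmomatic 0.39, mapped to GRCm38 with STAR 2.7.10a and counted with featureCounts 2.0.3. Of the 21936 gene identifiers, 21894 were named through GENCODE vM21 on the same build and 42 were not. All 4 libraries were used, grouped by antibody as labelled.

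After filterByExpr, 14722 genes were fitted in edgeR 4.0.16 (R 4.3.3) with TMM factors and its quasi-likelihood F test (glmQLFit, glmQLFTest), and p-values were adjusted over all of them by Benjamini-Hochberg. The common dispersion was 0.135. A call needed a log2 fold change of 1 or more in size and an adjusted p of 0.05 or less. RPKM used the summed length of annotated exons. Intervals of counting error are not given, as PCR reads without molecular identifiers are not independent molecules.

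The ADAM genes and all lists were chosen with earlier results of these data known. All members are accounted for. Values in every library are given for any called gene, for Adam1a, Adam1b, Adam2, Adam3, Adam10 and Adam17, and for the 4 tested members with the smallest p in each direction in the testis-restricted and other-tissue lists. Adam18, Adam32 and Adam7 were added after their values were seen. Of each pathway list the 2 genes with the smallest p are named.

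The alternatives were DESeq2 1.42.0, DESeq2 size factors, upper-quartile normalization, no filter, at least 10 counts in every library, the replicate number as a block, and leaving out each library. Zinc-binding sites were found with Biopython 1.88 as the codons of H, E, 2 residues, H, 2 residues, G, 2 residues and H, and shared stretches with BLAST+ 2.17.0.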

Additional observations from a re-analysis of the deposited data

How the results depend on the processing

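No ADAM gene was called under DESeq2, DESeq2's size factors, upper-quartile normalization, either filter or the replicate block. With each library left out in turn, between 0 and 2 members were called higher and between 0 and 11 lower, with both maxima without control replicate 2, and 1 was called lower without control replicate 1. At an unadjusted p under 0.05, the 1 higher member became 0 with DESeq2. The 2 lower members became 6 with DESeq2 and 8 with upper-quartile normalization. At this p the share over all genes was taken only for the reported edgeR fit. The counts under the alternatives therefore have no background and are not read as a result about the family. Calls over all genes (102 higher, 0 lower) were 20 higher with upper-quartile normalization, 29 with at least 10 counts in every library, 283 higher and 24 lower without a filter, and from 24 to 2853 higher and from 0 to 2637 lower with a library left out. The replicate block, which uses numbers that are not known to pair the samples (2 pairs, correlation of deviations 0.126), gave 274 higher and 3 lower over all genes and, at an unadjusted p under 0.05, 2 ADAM genes higher and 1 lower.

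The median log2 fold change of the testis-restricted members lay between -1.18 and -0.10 with a library left out, and that of the members of other tissues between -0.48 and 0.13. With a library left out, the sign of 12 genes turned. Without control replicate 1 the value was the highest and positive for Adam4 (-0.60 to 0.14), Adam6a (-0.62 to 0.082), Adam18 (-0.74 to 0.30), Adam21 (-0.62 to 0.17), Adam30 (-0.99 to 0.46) and Adam39 (-0.94 to 0.059), and the lowest and negative for Adam10 (-0.22 to 0.98) and Adam15 (-0.013 to 2.24). Without control replicate 2 it was positive for Adam8 (-0.70 to 0.29) and Adam23 (-1.12 to 0.54) and negative for Adam34 (-0.099 to 0.14). Adam11 (-0.28 to 0.021) turned without TSSK2-IP replicate 2, as did Adam34 (-0.012), which was also negative with DESeq2 (-0.046) and with its size factors (-0.091). The cause was not tested. The depth of the libraries left Adam7 (3 to 26 counts) untested.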
